A study of Mus musculus with 2 samples.

Results

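The cytosolic heat shock chaperones were followed at the transcript level in mouse cavernous pericytes kept in high or normal glucose. Members were the probes whose RefSeq accession maps to Hsf1, Hspa1a, Hspa1b, Hspa8, Hspb1, Hsph1, Dnaja1, Dnajb1, Hsp90aa1 or Hsp90ab1. Of these 10 genes, 9 were matched by 13 of the 55681 probes, and on both arrays all 13 probes were well above background with no saturated spot. No probe mapped to Hspa1b by this rule, so Hspa1b was not analysed here. Over the whole array, 20887 genes were named in this way and 14176 were measured on both arrays.

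Pericytes are contractile cells that wrap small vessels, and these were primary cultures of cavernous cells from the penis of C57BL/6 mice, grown with fetal serum and human PEDF, a secreted factor, in both conditions. The high glucose group was kept at 30 mmol and the normal glucose group at 5 mmol (the labels state no volume) for 72 h. Each group is a pool of RNA from 3 samples on 1 Agilent 1-colour array, so there is 1 array per condition, no replicate check and no test for any gene. An osmotic control is not analysed here.

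Heat shock proteins bind unfolded or aggregating proteins and help them refold or pass to degradation. The HSP70 chaperones work in cycles of ATP hydrolysis, which J proteins start and nucleotide exchange factors reset. HSP90 takes over partly folded clients such as kinases and steroid receptors, and small heat shock proteins hold unfolded chains without using ATP. The factor HSF1 is held inactive by chaperones in resting cells and, when unfolded protein draws them away, binds heat shock elements, alternating GAA and TTC blocks in the promoters of these genes. Strong induction of Hspa1a and Hspa1b is the usual sign of that response, while Hspa8 and Hsp90ab1 are made in most cells at all times.

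RefSeq promoter sequences of assembly GRCm38.p6 were at hand for 6 of the 10 genes, in 10 entries, since a gene can have several start sites. They are shown because these blocks are where HSF1 is known to act, and because they show how alike the Hspa1a and Hspa1b promoters are. Capitals mark an inverted repeat of the blocks, GAANNTTC or TTCNNGAA, each of which reads the same on both strands. The first pair gives the 250 bases before the start site of Hspa1a (chr17:34972157-34972406, minus strand) and of Hspa1b (chr17:34959239-34959488, minus strand). The others are 30-base stretches of Hspb1 (chr5:135887801-135887830, plus strand), Hsph1 (chr5:149636351-149636380, minus strand) and Dnaja1 (chr4:40722333-40722362, plus strand).
Hspa1a: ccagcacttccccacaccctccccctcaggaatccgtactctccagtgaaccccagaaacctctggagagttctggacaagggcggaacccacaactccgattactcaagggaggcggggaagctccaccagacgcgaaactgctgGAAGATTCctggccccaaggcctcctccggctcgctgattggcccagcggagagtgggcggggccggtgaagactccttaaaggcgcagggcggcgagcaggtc
Hspa1b: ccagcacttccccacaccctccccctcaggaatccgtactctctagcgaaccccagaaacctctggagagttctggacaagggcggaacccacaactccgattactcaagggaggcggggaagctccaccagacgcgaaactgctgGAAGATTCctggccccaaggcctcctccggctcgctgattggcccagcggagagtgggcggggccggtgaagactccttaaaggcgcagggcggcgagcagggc
Hspb1: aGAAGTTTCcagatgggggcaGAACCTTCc
Hsph1: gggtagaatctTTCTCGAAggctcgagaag
Dnaja1: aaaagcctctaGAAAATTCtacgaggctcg

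The Hspa1a and Hspa1b stretches differed at 3 of 250 bases, C44T, T47C and T249G, counted from 1 at the 5′ end with the base of Hspa1a first. Both carried the inverted repeat from position -104 relative to the start site. The sequences of the transcripts and of the Hspa1a probe were not examined. Whether that probe also detects Hspa1b is therefore not known, and its signal is uncertain as to the copy. Hspb1 carried 2 inverted repeats, Hsph1 carried 1 upstream of both its start sites, and Dnaja1 carried 1 upstream of 1 of its 3 start sites. Neither Dnajb1 entry held one. In all, 6 of the 10 entries, from 5 of the 6 genes, held an inverted repeat within 250 bases upstream, against 12.8% of 32851 promoters in the table. These entries are not independent, since both Hsph1 entries hold the same site and the Hspa1a and Hspa1b stretches are near-identical. The genes were also listed as heat shock genes beforehand, so this contrast is no test. The stricter run of 3 blocks, GAANNTTCNNGAA or its reverse TTCNNGAANNTTC, which contains inverted repeats, was in 0 of the 10 entries and in 0.466% of all promoters. These matches describe letters in a window and not binding.

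The heat shock genes stood close to each other in the 2 pools, with Hspa1a as the exception. Of the 9 measured genes, 7 had log2 ratios of high over normal glucose within 0.1 of zero, where 60.2% of all 14176 measured genes did. Bright spots vary less, and among measured genes with a signal of 4096 or more, where 7 of the 9 members lie, the share was 79.0%, so closeness to zero does not set these genes apart. Hspa1a had a ratio of 1.34, and no member was past 1.5-fold. Past 1.2-fold, 1 of 9 members was higher, against 6.8% of all measured genes, and 0 were lower, against 5.51%. Past 1.2-fold in either direction the share was 12.3%. Past 1.5-fold in either direction 2.81% of all measured genes were called, and past 2-fold 0.917%, with no member among them.

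Signals below are processed intensities as scanned, unscaled, and signals of different probes are not comparable. Ratios were taken after each array was set to its own 75th percentile, which adds 0.08 to every log2 ratio. Precision was read from probes printed 10 times on the same arrays. The log2 ratio of a single spot had a median SD of 0.032 over 94 such probes with a signal of 4096 or more, 0.044 over 101 probes between 512 and 4096, and 0.10 over 47 probes between 128 and 512. This SD covers spots of 1 hybridisation and neither cultures nor labelling. The error model of the scanner software gives a wider SE, 0.20 on the log2 ratio of a bright spot. It came to about 10% of the signal on each array for every member probe of 4096 or more. It is not a spread between replicates.

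**Figure D1:**
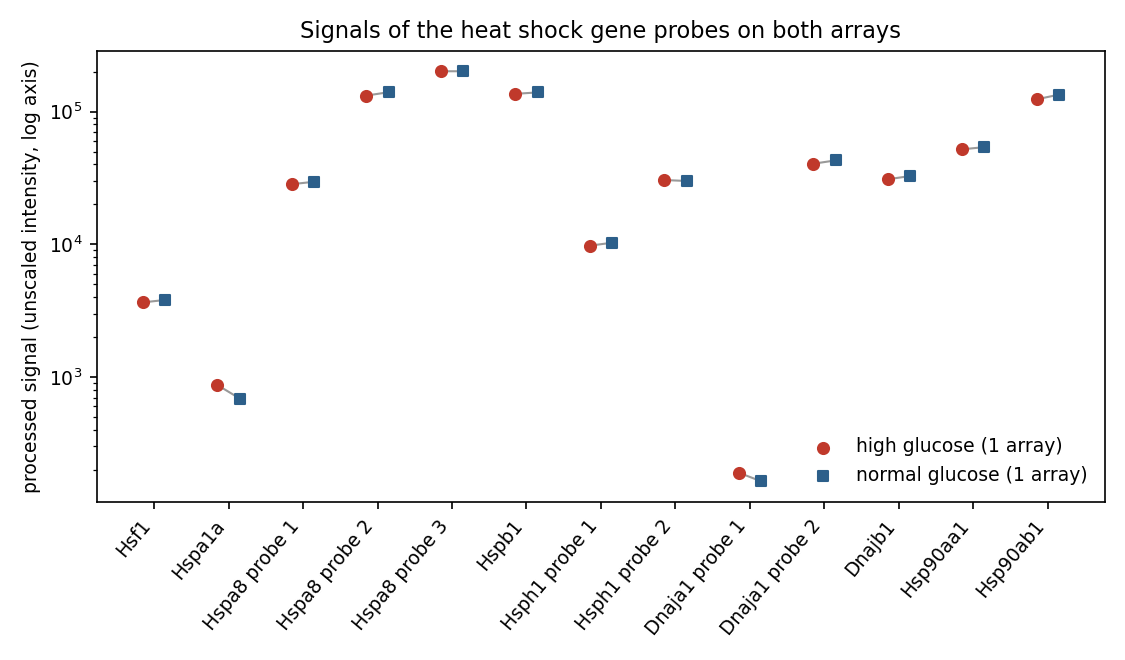
Processed signal (unscaled intensity, log axis) of the 13 heat shock gene probes, with the high glucose array as circles on the left of each pair and the normal glucose array as squares on the right; each symbol is 1 array, with no error bar. The pairs lie nearly level except for Hspa1a, at 869 in high and 688 in normal glucose, and the dim Dnaja1 probe 1, at 190 and 164.

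Hsf1, the factor that switches on the heat shock genes, had a signal of 3651 in high and 3807 in normal glucose. Its scaled ratio was 1.01, a log2 ratio of 0.020, which is smaller than the SD of repeat spots. With each array centred on its median the value was -0.041, so no direction can be given.

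Hspa1a, the stress-inducible HSP70, had a signal of 869 in high and 688 in normal glucose, and its 1 probe gave a ratio of 1.34 and a log2 ratio of 0.42. The spot was brighter on the high glucose array, while that array was the dimmer one by its 75th percentile, 733 against 774 in normal glucose. The log2 ratio is 9.50 times the repeat-spot SD of 0.044 and 2.04 times the SE of 0.20 from the error model. Neither multiple is a test, as neither spread covers separate cultures. With 1 array per condition it has no replicate check. Of 4875 measured genes with a signal between 512 and 4096, 1.33% had a log2 ratio as high or higher, and of all measured genes 3.17%. The median pixel of the same spot less its local background gave 0.45, and 8 dim neighbouring spots were shifted by 0.013. The log2 ratio lay between 0.36 and 0.45 in 10 of 10 alternative ways of processing. All of these read the same spot, so their number is no independent check. With the deposited values, the median over probes or no filter on dim probes the value could not change.

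Hspa8, the constitutive HSP70 also known as Hsc70, was read by 3 probes. The first had 28385 in high and 29617 in normal glucose, the second 132115 and 140089, and the third 201477 and 201484, high glucose first each time. Their log2 ratios were 0.019, -0.0046 and 0.080, a spread of 0.084 within 1 gene. The probe with the highest signal, which stands for the gene here, was the one with the highest ratio.

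Dnajb1, the J protein known as Hsp40 and itself heat-inducible, had a signal of 30915 in high and 32675 in normal glucose. Its scaled ratio was 1.00. Dnaja1, a J protein of the type found in all cells, was read by 2 probes that differed. The bright probe had 40472 in high and 42898 in normal glucose, with a log2 ratio of -0.0041. The dim probe had 190 in high and 164 in normal glucose, with a log2 ratio of 0.29, in a signal range where repeat spots have an SD of 0.10. The median pixel of the dim probe gave 0.20, and the probes disagree by 0.30.

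Hsph1, the HSP110 that serves HSP70 as a nucleotide exchange factor, was read by 2 bright probes. One had 9767 in high and 10279 in normal glucose and the other 30515 in high and 30004 in normal glucose. The log2 ratios were 0.0061 and 0.10. The first and second brightest probes were compared over 627 genes with more than 1 probe of signal 4096 or more. Their absolute difference had a median of 0.042, and their signed difference an SD of 0.098. The gap of 0.098 between the Hsph1 probes equals 1 such SD and is larger than that median.

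The pair of HSP90 genes gave log2 ratios near zero. Hsp90aa1, the inducible form, had a signal of 51995 in high and 53994 in normal glucose and a log2 ratio of 0.025. Hsp90ab1, the constitutive form, had 123771 in high and 134281 in normal glucose and a log2 ratio of -0.038. The sign for Hsp90aa1 turned with median centring, to -0.035, while Hsp90ab1 was on the low side in 10 of 10 alternatives, between -0.099 and -0.030. All of these alternatives read the same Hsp90ab1 spot, so their number is no independent check. A ratio of 0.974 is the size of the Hsp90ab1 difference, which is about that of the repeat-spot SD.

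Hspb1, a small heat shock protein, Hsp27 in human, that also acts on actin filaments in contractile cells, had a signal of 136112 in high and 139608 in normal glucose. Its log2 ratio was 0.043, and -0.018 with median centring.

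**Figure D2:**
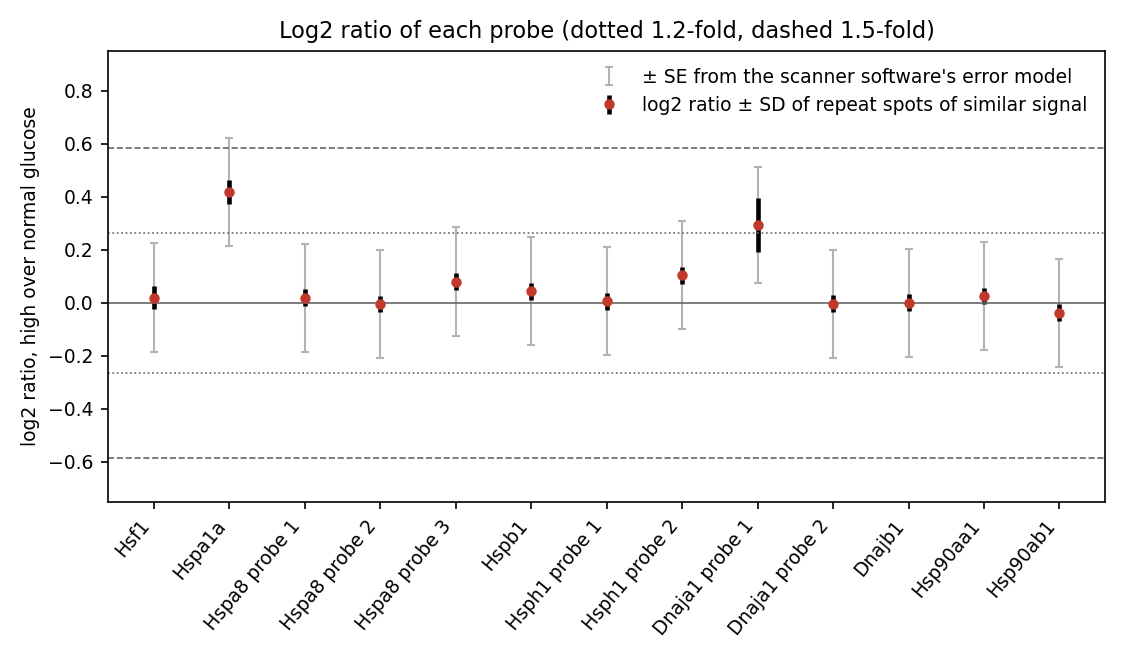
Log2 ratio of high over normal glucose (75th percentile scaling) for each of the 13 probes; thick bars are the SD of repeat spots of similar signal, thin bars the SE of the scanner software's error model, dotted lines 1.2-fold and dashed lines 1.5-fold. Hspa1a, at 0.42, and Dnaja1 probe 1, at 0.29, lie above the upper 1.2-fold line, and the other 11 points lie between -0.038 and 0.10.

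Over the 9 measured genes the median log2 ratio was 0.025, against -0.0073 over all measured genes. Of the 9, 7 lay above zero, against 46.8% of all genes. That count depends on where zero is set, since it was 3 with median centring, where the member median was -0.035 and that of all genes -0.068. Against the median gene, which a shift of the whole array leaves in place, 8 of 9 members lay above it, by 0.033 at the median. With quantile normalization 7 of 9 did, and with normexp or median pixels 6 of 9. The distance was 0.060 with median pixels and 0.062 with no filter on dim probes. Without Hspa1a the remaining 8 genes had a median of 0.023 and an SD of 0.046. Of the 9 genes, 7 had signals of 4096 or more, and among the 4715 measured genes that bright 1.65% were higher and 0.827% lower by at least 1.2-fold, with none of the 7 among them.

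**Figure D3:**
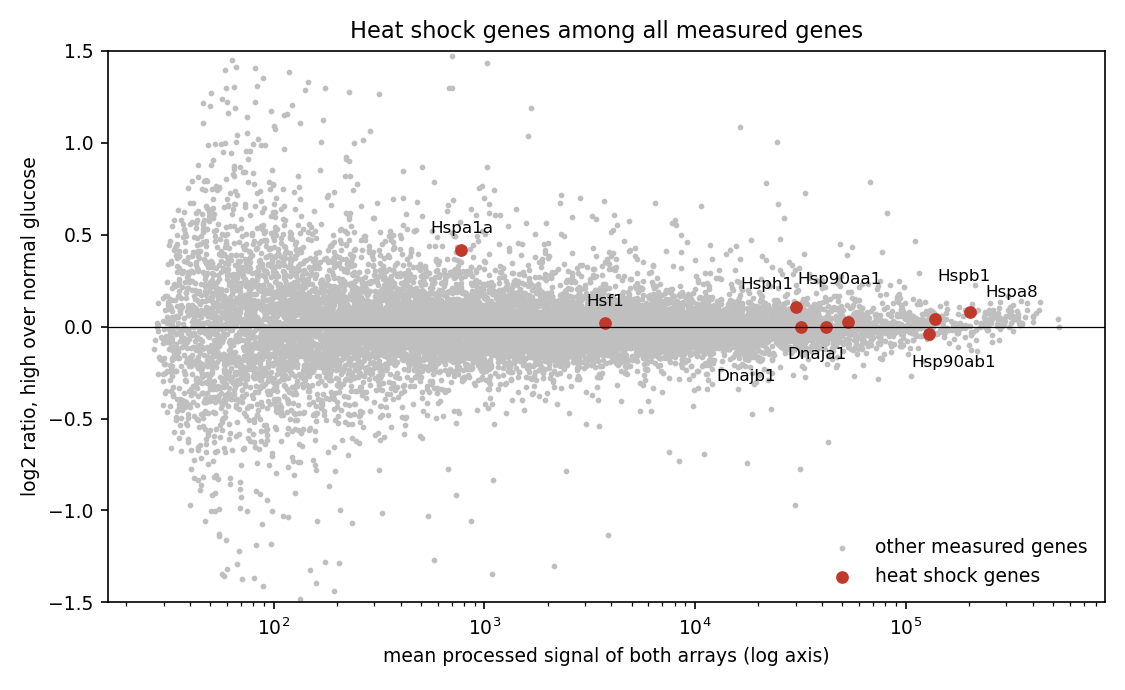
Log2 ratio of high over normal glucose against the mean processed signal of both arrays (log axis), with 1 grey point per measured gene and the 9 heat shock genes in red; 46 genes beyond ±1.5 lie outside the axis. Spread narrows with signal, and Hspa1a, at 0.42, lies at the upper edge of the grey cloud at its signal while the other 8 lie inside it.

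Other chaperones and their partners were read from 8 lists. Across these lists 2 genes were at least 1.5-fold higher, Hsf2 and Dnajc7, and none was 1.5-fold lower. Of all measured genes, 1.62% were higher and 1.19% lower by that rule. Hsf2 was 1 of 4 measured heat shock factors and Dnajc7 1 of 9 measured J proteins, and the remaining lists held 6 to 22 measured genes each. A count of 2 over all of these does not set the lists apart from the share over all genes. Hsf2, a second heat shock factor that can pair with HSF1, had a signal of 1259 in high and 837 in normal glucose, a ratio of 1.59. Among measured genes with a signal between 512 and 4096, 0.656% were 1.5-fold higher. Dnajc7, a J protein that binds both HSP70 and HSP90, had 12718 in high and 8525 in normal glucose, a ratio of 1.58. Among genes with a signal of 4096 or more, 0.276% were 1.5-fold higher. Each rested on 1 probe. The lowest values over all alternatives were 0.61 for Hsf2 and 0.60 for Dnajc7 on the log2 scale, and the median pixel gave 0.70 and 0.68.

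Of the 4 genes in the list of heat shock factors, all were measured and 3 were above zero, with a median log2 ratio of 0.13. Hsbp1, a small protein that binds HSF1 trimers, was the lowest at -0.039. Hsf4 and Hsf5 had dim signals, at 47.9 and 64.7 in high and 49.7 and 57.8 in normal glucose, where repeat spots have an SD of 0.29.

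The other HSP70 and HSP110 genes, 8 of 8 measured, had a median of -0.019, with 3 above and 5 below zero. Hspa4l, an HSP110 relative of Hsph1, was the highest, with a signal of 5227 in high and 4004 in normal glucose and a ratio of 1.38. Its 1 probe was bright, and its log2 ratio of 0.46 lay between 0.40 and 0.48 in the alternatives. Hspa1l, a testis-enriched HSP70, was the lowest at -0.34, from dim signals of 30.5 in high and 40.7 in normal glucose.

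Of the 8 other small heat shock proteins 7 were measured, with a median of 0.13 and 5 above zero. Hspb9, known as a testis protein, was the highest at 0.55 from dim signals of 101 in high and 72.9 in normal glucose. Hspb7, a small heat shock protein of heart and muscle, was the lowest at -0.17, with 2006 in high and 2392 in normal glucose. Its log2 ratio was -0.13 with outlier spots left out, and also -0.13 in the authors' deposited values. Dim spots beside Hspb7 were shifted by 0.34, against the direction of its ratio. Cryab, alpha B crystallin, was picked out after its values were seen, as it is heat-inducible like Hspb1. It had 95064 in high and 94156 in normal glucose, a log2 ratio of 0.094, and 0.14 by its second probe. Dim spots beside Cryab were shifted by 0.34 in the direction of its ratio, and their part in it was not tested.

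Among the other cytosolic J proteins 9 of 10 could be measured, and their median was 0.048 with 5 above zero. Beside Dnajc7 at 0.66, the lowest was Dnaja2, a relative of Dnaja1, at -0.050, whose second probe was on the other side of zero at 0.048. Dnajb2, a J protein of neurons, was picked out after its values were seen, since both its probes were higher, by 0.32 and 0.36 on the log2 scale.

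The cochaperones of HSP70 and HSP90 were the longest list, with 22 of 22 genes measured. Their median was 0.016, 15 were above and 7 below zero, and none of them was past 1.2-fold. Of the 22, 15 had a signal of 4096 or more, where 1.65% of all measured genes were higher and 0.827% lower by that fold, so a count of 0 is close to the share at that brightness. Fkbp4, an immunophilin of steroid receptor complexes, was the highest at 0.18, with 934 in high and 869 in normal glucose. Ahsa2, a relative of the HSP90 ATPase activator, was the lowest at -0.095 from dim signals of 32.3 in high and 36.5 in normal glucose. Bag3, an HSP70 cochaperone that HSF1 is known to induce, was picked out after its values were seen and had a log2 ratio of 0.043.

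The 8 subunits of TRiC, the ring-shaped chaperonin that folds actin and tubulin, had a median of -0.012, with 2 above and 6 below zero. Cct6a was the highest at 0.081, or 0.15 with normexp and 0.13 with median pixels, and Cct2 the lowest at -0.12. The 6 mitochondrial chaperones had a median of -0.050 with 1 above zero, from 0.037 for Hspd1, the HSP60 of mitochondria, to -0.10 for Dnaja3, a mitochondrial J protein. Dim spots were shifted by 0.31 beside Cct6a, -0.12 beside Cct2, 0.51 beside Hspd1 and -0.071 beside Dnaja3. Each shift had the direction of the ratio beside it, and their part in these ratios was not tested. Among other named genes the shifts went both ways. Against the ratio they were -0.17 beside Dnajc7, -0.044 beside Hspa4l and -0.035 beside Fkbp4, and with it 0.049 beside Hsf2. The 9 chaperones of the endoplasmic reticulum had a median of 0.031. Pdia4, a disulphide isomerase, was the highest at 0.14, and Dnajc3, a J protein that partners the HSP70 of that compartment, the lowest at -0.24, with 3940 in high and 4924 in normal glucose. The medians of the endoplasmic reticulum, cochaperone and J protein lists turned negative with median centring. That of the cochaperones also did with median pixels, at -0.0080, and that of the J proteins with the median over probes, at -0.00084, while that of TRiC was 0.0011 with background modelled by normexp.

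**Figure D4:**
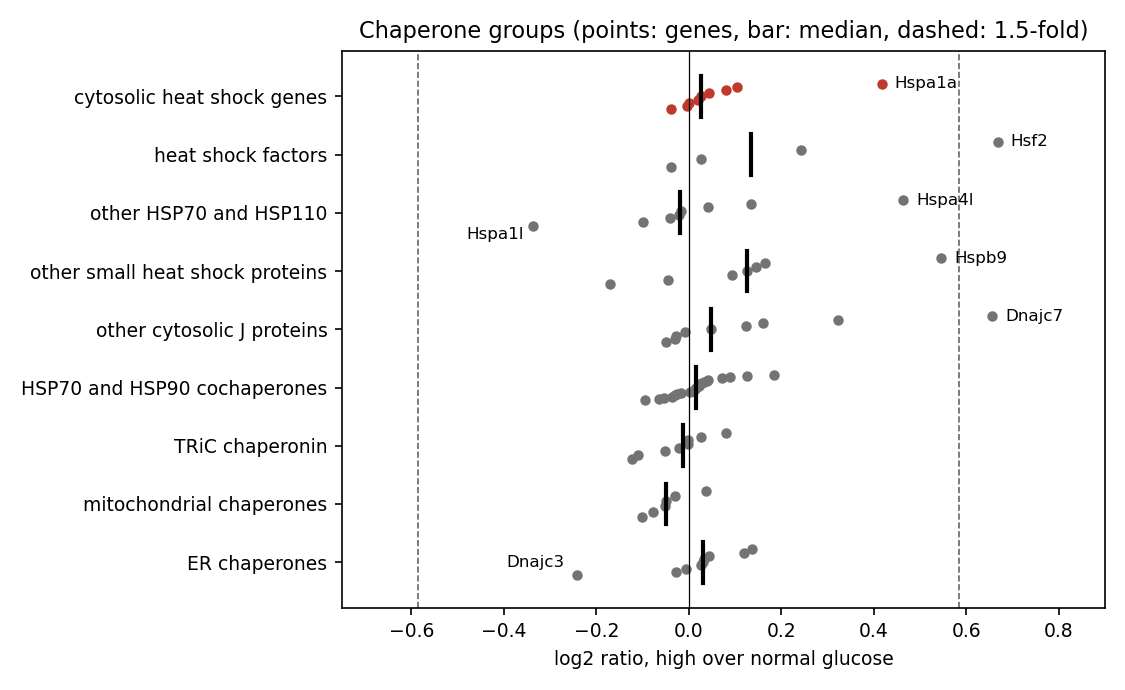
Log2 ratio of high over normal glucose for each measured gene of the cytosolic heat shock group and of 8 related lists; each point is 1 gene, bars are medians and dashed lines 1.5-fold. Medians lie between -0.050 and 0.13, and the points beyond the upper dashed line are Hsf2 and Dnajc7.

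Promoters with heat shock blocks were also set against the ratios of all genes. Of 11274 measured genes with a promoter in the table, 51 had the run of 3 blocks within 250 bases upstream. Their median log2 ratio was -0.015 and 21 were above zero, against a median of -0.0071 over all 11274. Past 1.2-fold, 4 were higher and 4 lower, 15.7% in all, against 11.8%. Of the 1385 genes with an inverted repeat, 89 were higher and 72 lower by that fold, 11.6% in all. The shares with an inverted repeat and over all genes are close. The group of 51 is small, and no test was run.

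As a check of the labelled cells, 8 of 9 pericyte markers were measured. Pdgfrb had 18161 in high and 17471 in normal glucose, Cspg4 7760 and 9453, Anpep 1556 and 1811, Rgs5 133 and 93.9, Des 503 and 635, Abcc9 99.3 and 144, and Acta2 270157 and 280786, high glucose first. The log2 ratios of the 8 ran from -0.45 for Abcc9 to 0.58 for Rgs5, both dim, with 4 above and 4 below zero and a median of -0.067. Kcnj8 did not stand well above background in high or in normal glucose. All 4 fibroblast markers (Pdgfra, Dcn, Lum and Col1a1) were measured too, so the presence of pericyte markers does not by itself identify the cells. Of other cells, 3 of 5 endothelial, 3 of 4 immune, 1 of 4 epithelial and 3 of 4 Schwann cell markers were measured, none of them past 1.5-fold. The brightest was Kdr, at 7075 in high and 7379 in normal glucose, picked out after its values were seen; its log2 ratio was 0.019, and -0.27 by its second measured probe. Epcam did not stand well above background in either pool, while Ptprc was dim, at 42.5 in high and 39.1 in normal glucose, as was Pecam1, at 90.0 and 84.6. In pooled RNA, fewer cells of a type and less RNA per cell cannot be told apart. On the arrays as a whole, 57.6% of 59305 gene spots were well above background in high and 56.3% in normal glucose, with 0 saturated.

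**Figure D5:**
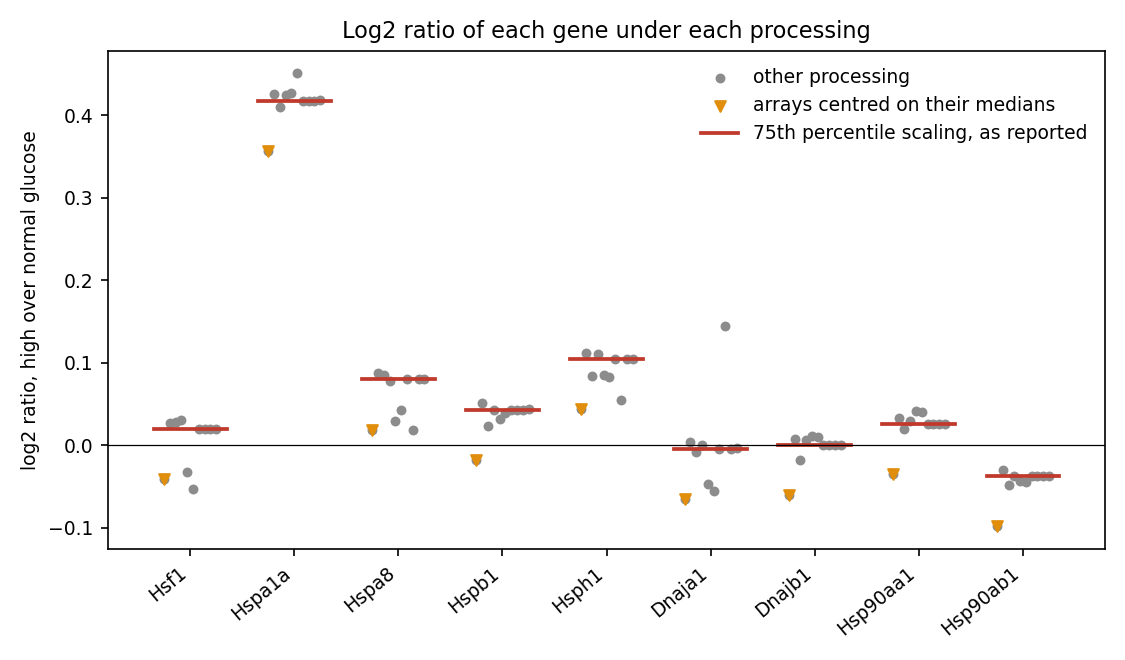
Log2 ratio of high over normal glucose for the 9 measured genes; red bars are the reported values (75th percentile scaling), orange triangles the values with arrays centred on their medians, and grey points the other alternatives, 10 alternatives in all. Hspa1a stays between 0.36 and 0.45, and for 5 genes (Hsf1, Hspb1, Hsp90aa1, Dnajb1 and Dnaja1) the points fall on both sides of zero.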

How the data were processed

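The intensity values were deposited as scanner output, which, per the file headers, came from version 11.5.1.1 of Feature Extraction run on single Cy3 scans, while the submitters' processing notes name 9.3.2.1. The processed signal had its background subtracted and was detrended within each array, per the file headers, and other values used, flags of 0 or 1, come from the same software. The authors' deposited value table held the same signal for 55249 of 55249 single-spot probes within a relative tolerance of 0.0001, with medians of 48.9 for high and 49.6 for normal glucose. Its scale is therefore linear and uncentred.

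Log2 signals of gene spots were averaged per probe and scaled by subtracting the 75th percentile of the array (733 in high and 774 in normal glucose). The 3671 control spots were left out. Accessions without versions were matched to the RefSeq table of GRCm38.p6, which named 27509 probes. The array names another build, so coordinates of genes from that table are not printed; those of promoters belong to the printed RefSeq sequences of GRCm38.p6. A gene stood on its probe with the highest mean level and counted as measured when at least 0.5 of its spots were well above background on both arrays and none was saturated. Dim neighbours were spots within 2 rows and columns that missed the background criterion in 1 or both pools. No test was run, with 1 array per condition; the number of arrays limits the precision. Counting was tested on simulated data. Members and lists were chosen with earlier results of these data known. Named genes were all members, the highest and lowest measured gene of each list, every list gene past 1.5-fold and 8 cell markers (Pdgfrb, Cspg4, Anpep, Rgs5, Acta2, Pecam1, Ptprc and Epcam). Hsf4, Hsf5, Cryab, Dnajb2, Bag3, Hmox1 and the other markers named were chosen after their values were seen. Alternatives were other scalings, background corrections, probe choices and filters. Python 3.11.15, numpy 2.4.6, pandas 2.3.3 and limma 3.58.1 in R 4.3.3 were used.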

Additional observations from a re-analysis of the deposited data

How the results depend on the processing

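Over 10 alternatives, no member passed 1.5-fold in any, and 72 of 90 member values moved by no more than the SD of repeat spots. That count is no measure of robustness, as all alternatives read the same arrays and some could hardly move a member. The deposited values and the run with no filter on dim probes returned the reported member values. Leaving out outlier spots or scaling on detected probes shifted all members by a small constant. Median centring lowers every log2 ratio by 0.061. It gave -0.035 for the member median, -0.041 for Hsf1, 0.36 for Hspa1a, 0.019 for Hspa8, -0.018 for Hspb1, 0.043 for Hsph1, -0.065 for Dnaja1, -0.061 for Dnajb1, -0.035 for Hsp90aa1 and -0.099 for Hsp90ab1. It gave list medians of 0.074 for heat shock factors, -0.080 for other HSP70 and HSP110, 0.066 for other small heat shock proteins, -0.012 for other J proteins, -0.044 for cochaperones, -0.073 for TRiC, -0.11 for mitochondrial and -0.030 for endoplasmic reticulum chaperones. Normexp on median pixels with an offset of 50 and quantile normalization, chosen after the data were seen since no mean pixel column was at hand, gave -0.032 for Hsf1, 0.029 for Hspa8, -0.048 for Dnaja1, 0.024 for heat shock factors, 0.010 for other J proteins and 0.093 for other small heat shock proteins. The planned normexp on mean pixels was not run. Median pixels less local background gave -0.053 for Hsf1, 0.043 for Hspa8, -0.055 for Dnaja1, 0.043 for heat shock factors, -0.065 for other HSP70 and HSP110 and 0.085 for other small heat shock proteins. The median over probes gave 0.145 for Dnaja1, 0.019 for Hspa8, 0.055 for Hsph1 and -0.00084 for other J proteins, as it takes in their weaker probes. Quantile normalization gave 0.079 for heat shock factors. The count of all genes past 1.5-fold, 398, was 149 with normexp and 2254 with no filter on dim probes. Median centring is a constant shift by construction, and without the filter more genes enter the count. The cause of the remaining shifts was not tested. No paired analysis was possible because each condition has 1 array. Dim signals limit Hsf4, Hsf5, Hspa1l, Hspb9 and Ahsa2.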

Other observations

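Hmox1, haem oxygenase 1, was set beside the heat shock genes after its values were seen, since in rodents it is known as a heat shock protein as well as an antioxidant gene. Its signal was 97417 in high and 11703 in normal glucose by the brighter probe, a log2 ratio of 3.14, and 5432 and 1276 by the other, a log2 ratio of 2.17. Among the 9 heat shock genes the highest log2 ratio was 0.42, for Hspa1a, and the median 0.025. The difference between Hmox1 and these genes was not tested, as each value comes from 1 array per condition.

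The dim Dnaja1 probe and the bright one name the same transcript accession, yet gave log2 ratios of 0.29 and -0.0041. Hspa4l and Hsph1, related HSP110 genes, had 0.46 and 0.10. For Hsf1 and Hsf2 the values were 0.020 and 0.67. These pairs were noticed in the data and none of the differences has a replicate check.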
